A study of Mus musculus with 3 samples.

Results

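Genes for ubiquitin ligases and their adaptors that restrain T cell activation were described in naive CD4+ T cells of a mouse: the ligases Cbl, Cblb, Itch, Nedd4, Nedd4l, Rnf128 and Peli1, and the adaptors Ndfip1 and Ndfip2. The genes were chosen by name for their known part in T cell tolerance, and earlier results of these data were known at the time. They are 9 of the 55536 genes in the deposited gene tables, of which 22028 are annotated as protein-coding. The RNA was polyadenylated RNA of naive thymus-derived CD4+ alpha-beta T cells from 1 male mouse aged 5 months, of the strain B6.SJL-Ptprca Pepcb/BoyJ, a C57BL/6-type line that carries the CD45.1 allele of Ptprc. Sequencing used 3 technical libraries of this 1 biological replicate. SDs therefore describe technical spread alone, and no comparison between animals or conditions exists. Levels are in TPM, a scale that divides reads by transcript length and by the library's total and so lets genes be set side by side.

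A ubiquitin ligase (E3) takes ubiquitin from a conjugating enzyme (E2) and attaches it to a chosen protein, which is then degraded, moved inside the cell or altered in its signalling. RING ligases such as the CBL proteins pass the ubiquitin on directly, whereas HECT ligases such as ITCH and NEDD4 first carry it on a cysteine of their own. In T cells that meet antigen without co-stimulation these ligases act on the signalling proteins below the T cell receptor, and mice that lack Cblb, Itch or Ndfip1 develop inflammation or autoimmune disease.

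The libraries held 14800852, 18170786 and 17448768 expected counts in genes, for libraries 1, 2 and 3. All 7 T cell markers, all 3 CD4 T cell markers and all 7 naive T cell markers looked for reached 1 TPM in every library; the naive markers had a median of 1085 TPM. Among the natural killer and myeloid markers, Klra8 had 0 counts and Lyz2 1 count. The CD8 T cell genes were unlike each other, with Cd8b1 at 17.0 ± 0.235 TPM, Eomes at 2.49 ± 0.315 TPM and Cd8a at 0.14 ± 0.05 TPM. A single marker each was detected of the 6 B cell, 7 myeloid and 4 natural killer genes (Cd79a at 2.06, Itgam at 1.63 and Klrd1 at 12.1 TPM). The same held for the 5 erythroid and platelet genes (Hbb-bs at 1.18 TPM) and the 5 stroma and epithelium genes (Epcam at 3.30 TPM). Of 8 effector or memory genes 3 were detected. The regulatory T cell gene Foxp3 averaged 18.9 ± 1.81 TPM and Ctla4 54.1 ± 3.54 TPM (SD, n = 3 technical libraries each). Their part in the levels below was not tested, and in bulk RNA a smaller number of cells that use a gene cannot be told apart from less of its RNA per cell.

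Of the 9 genes, 7 were detected, meaning at least 1 TPM in every library, against 9823 of the 22028 protein-coding genes (44.6%). Cblb was the highest at 518 ± 26.0 TPM, followed by Ndfip1 at 481 ± 66.2 TPM and Peli1 at 341 ± 41.7 TPM (SD, n = 3). A middle tier held Ndfip2 at 89.0 ± 12.8 TPM, Itch at 87.2 ± 9.20 TPM, Nedd4l at 49.6 ± 6.34 TPM and Cbl at 38.1 ± 0.451 TPM. Nedd4 at 1.01 ± 0.535 TPM and Rnf128 at 0.683 ± 0.153 TPM were at the bottom. Among protein-coding genes ordered by mean TPM, Cblb was at rank 239, Ndfip1 at 258 and Peli1 at 402, against 10095 for Nedd4 and 10418 for Rnf128. Neighbours in the order whose library values overlapped were Cblb and Ndfip1, Ndfip2 and Itch, and Nedd4 and Rnf128. The other neighbouring genes kept 1 order in all 3 libraries without overlap.

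**Figure D1:**
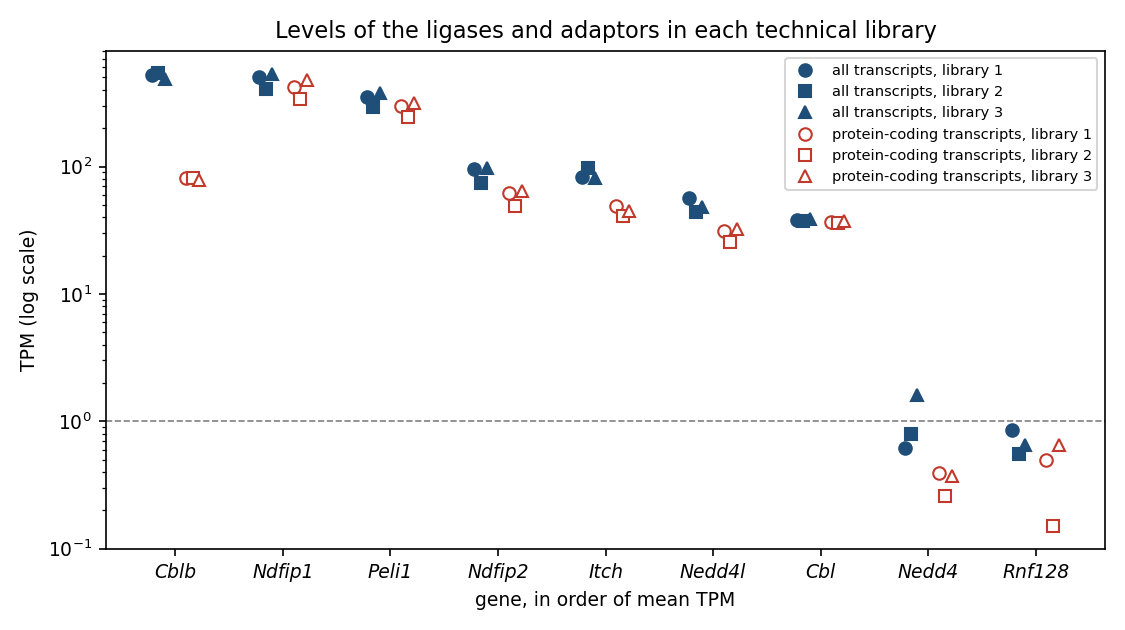
TPM (log axis) of each gene in the 3 technical libraries, with all transcripts of the gene as filled blue symbols and its protein-coding transcripts alone as open red symbols; circles, squares and triangles are libraries 1, 2 and 3, and the dashed line marks 1 TPM. Cblb lies at 489 to 539 TPM with all transcripts but near 80 TPM with protein-coding transcripts alone, while Cbl hardly moves.

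Cblb encodes CBL-B, the RING ligase that makes T cell activation depend on the co-stimulatory receptor CD28. Its 3 libraries gave 526, 539 and 489 TPM, a narrow range with library 3 the lowest. Most of this TPM was 1 transcript that the annotation classes as a retained intron, Cblb-202, with 84.7%, 84.6% and 83.4% of the gene's TPM (84.2 ± 0.739%, SD, n = 3). Of the protein-coding transcripts, Cblb-204 held 7.80 ± 1.00%, Cblb-201 3.92 ± 0.382% and Cblb-206 3.77 ± 0.215%. Together the protein-coding transcripts came to 80.7, 80.8 and 78.7 TPM, nearly the same in each library. By reads rather than TPM the split was alike: 50700 of the gene's 61378 expected counts went to the retained-intron transcript and 10666 to protein-coding transcripts.

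Cblb lies on the plus strand of GRCm38 at chr16:52031225-52208048. Cblb-202 is 3930 bases long in 3 exons. It shares the exon that holds the start codon with Cblb-204, Cblb-201 and Cblb-206, whose first exons are not all the same. Its last exon begins with the coding exon at 52047199 and runs past that exon's end at 52047449 to 52050905, so that it takes in 3456 bases, or 5.35%, of the 64651-base intron that follows. The border is shown because it separates the transcript that holds most of the gene's TPM from those that encode the ligase. Both sequences, from the GENCODE M21 transcripts of GRCm38, start with the same 30 coding bases in lower case; the capitals are the 30 bases after the border, which are intron in Cblb-202 (chr16:52047420-52047479, plus strand) and the next exon in Cblb-204.
Cblb-202: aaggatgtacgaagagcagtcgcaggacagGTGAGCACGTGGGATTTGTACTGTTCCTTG
Cblb-204: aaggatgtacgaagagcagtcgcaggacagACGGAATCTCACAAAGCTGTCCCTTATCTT
Read in the frame of Cblb-204, which runs through 419 coding bases up to the border, Cblb-202 meets a stop codon that is complete 4 bases past it. The open frame is thus 140 codons long, against 938 codons in Cblb-204. Of the bases of Cblb-202, 3301 (84.0%) lie outside the exons of every protein-coding Cblb transcript.

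**Figure D2:**
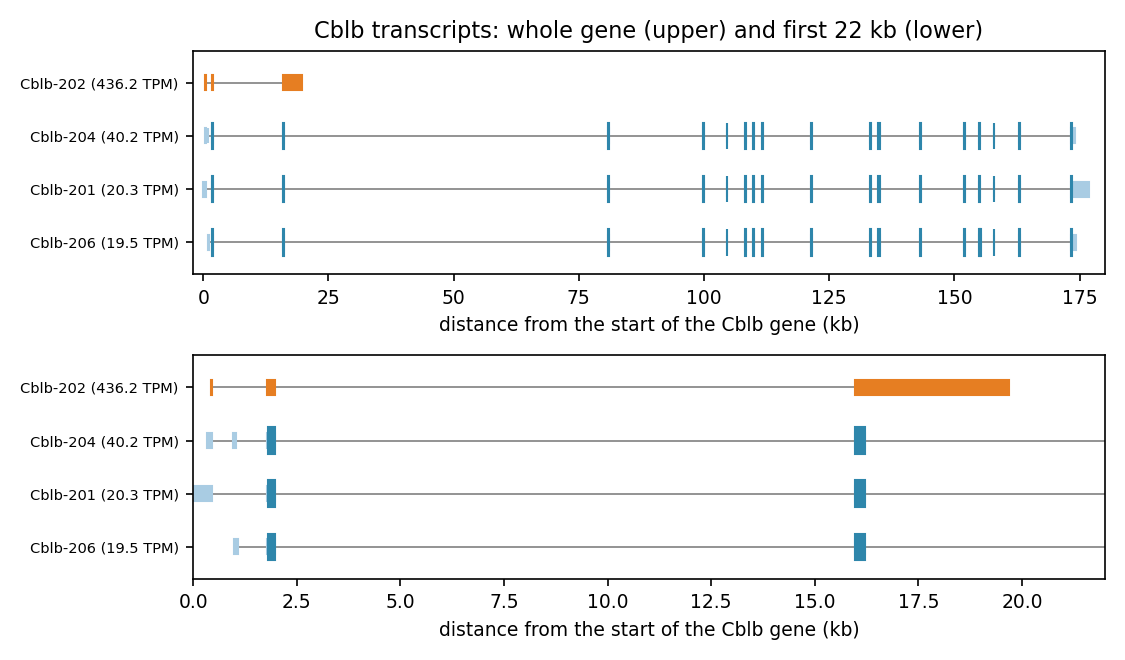
Exon maps of the 4 Cblb transcripts with the highest TPM, against distance in kb from the start of the gene, over the whole gene (upper) and its first 22 kb (lower); orange boxes are exons of the retained-intron transcript, dark blue boxes coding and pale blue boxes untranslated exon parts of protein-coding transcripts, and mean TPM stands beside each name. Cblb-202 (436 TPM) ends inside the intron that its last exon runs into, while the other 3 transcripts run on across the gene.

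A retained-intron share as high as that of Cblb was uncommon in these libraries. Shares of at least 80% were found in 105 of the 9823 detected protein-coding genes (1.07%), and in 30 of the 1870 genes at 100 TPM or more (1.60%). Cblb was at rank 23 by this share among the abundant genes. The median detected protein-coding gene had 3.91% of its TPM in retained-intron transcripts and 84.0% in protein-coding ones. Only 6125 of these genes have an annotated retained-intron transcript. Among them the medians were 14.2% and 74.3%, and 105 (1.71%) had a retained-intron share of at least 80%. These values describe 1 cell sample read 3 times and were not tested.

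Cbl, on chr9:44142976-44234049 of the minus strand, encodes c-CBL, the close relative of CBL-B that ubiquitinates the active T cell receptor complex. It had 38.0, 37.6 and 38.5 TPM, the steadiest level of the 9 genes. Its TPM came almost wholly from protein-coding transcripts (96.1 ± 0.838%, SD, n = 3), with Cbl-201 at 60.1 ± 4.71% and Cbl-206 at 17.8 ± 1.71%. The log2 ratio of Cblb to Cbl, on TPM with a pseudocount of 0.1, was 3.79, 3.84 and 3.66 in libraries 1, 2 and 3 (3.76 ± 0.09). With protein-coding transcripts alone, a comparison added after the transcript tables had been seen, the same log2 ratio was 1.13, 1.17 and 1.08 (1.13 ± 0.05). Cblb was above Cbl in every library by both measures, and the excess was smaller by the second. Cblc, the remaining CBL gene, had 1 count in all.

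Itch, on chr2:155133509-155226855 of the plus strand, encodes the HECT ligase missing in itchy mice, which lowers the transcription factor JUNB in T cells. It had 83.3, 97.7 and 80.7 TPM, highest in library 2. Protein-coding transcripts held 52.2 ± 9.14% and retained-intron transcripts 41.1 ± 8.19% of its TPM. By reads the split was unlike this: protein-coding transcripts had 6887 of the gene's 9014 expected counts (76.4%) and retained-intron transcripts 1814. The leading transcript Itch-201 had 42.9%, 24.1% and 44.2%, and the retained-intron transcript Itch-204 had 26.3%, 36.3% and 23.6%. Library 2 thus stood apart in both: it was low for the coding transcript and high for the intron-holding one, and the coding transcripts together gave 40.9 TPM there, against 49.1 and 45.0 TPM in libraries 1 and 3. Itch-202, also protein-coding, held 15.1 ± 3.23%.

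Itch-204 is a short transcript of 1171 bases of which 86.8% lie outside protein-coding exons. A further retained-intron transcript, Itch-205, held 7.47 ± 2.11% of the gene's TPM and was singled out after its values were seen, since it reads from the coding sequence into an intron. Its border at the end of a coding exon is set beside the splice of Itch-201 below, from GENCODE M21. The lower case letters are the shared 30 coding bases and the capitals the bases past the border (Itch-205 at chr2:155174042-155174101, plus strand, GRCm38).
Itch-205: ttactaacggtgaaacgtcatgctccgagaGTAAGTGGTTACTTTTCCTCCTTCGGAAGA
Itch-201: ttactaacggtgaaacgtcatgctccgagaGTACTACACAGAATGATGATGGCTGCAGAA
Itch-205 takes in 3076 bases (61.9%) of the 4970-base intron. In the frame of Itch-201, with 475 coding bases up to the border, it meets a stop codon that is complete 134 bases past it. The open frame, intron part included, is 202 codons long, against 864 codons in Itch-201.

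Nedd4, on chr9:72662346-72749852 of the plus strand, encodes the founding HECT ligase of the family. Its levels of 0.62, 0.79 and 1.62 TPM rested on 14.0, 17.1 and 31.7 expected counts. The total of 62.8 counts has an exact 95% Poisson interval of 48.4 to 80.6, which covers counting error only. Library 3 was the only library above 1 TPM by these values, but the deposited posterior means were 1.78, 1.62 and 2.50 TPM, above 1 TPM in each. Protein-coding transcripts gave 0.340 ± 0.07 TPM, and the shares of its transcripts, from Nedd4-203 (a retained intron, 45.1 ± 15.7%) to Nedd4-201 (protein-coding, 25.8 ± 12.4%), Nedd4-205 (a retained intron, 13.6 ± 4.74%) and Nedd4-202 (protein-coding, 10.2 ± 12.9%), rest on the same few counts. Of these counts, 69.9% went to protein-coding transcripts.

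Nedd4l encodes NEDD4-2, best known as the ligase that removes the epithelial sodium channel from the cell surface. It had 56.6, 44.2 and 48.0 TPM, with library 2 lowest, as it was for the Ndfip genes and Peli1. It has 34 annotated transcripts, 19 of them protein-coding, and the split among them was unsteady. Nedd4l-209, a noncoding processed transcript of 381 bases that lies wholly within protein-coding exons, had the highest mean share, 19.6 ± 2.41% of the TPM. Its shares were 17.4%, 22.2% and 19.2% in libraries 1, 2 and 3, the highest in library 2 alone. With posterior means they were 18.9%, 20.3% and 20.3%, the highest in each library. These shares rested on 28.1, 36.3 and 31.3 expected counts, against 315, 312 and 197 for the coding Nedd4l-215. The coding transcript Nedd4l-221 had 21.6%, 0.01% and 22.8% in libraries 1, 2 and 3, while Nedd4l-229 had 4.81%, 19.9% and 18.8%. With posterior means the shares were 9.17%, 2.28% and 10.7% for Nedd4l-221, and 3.03%, 12.1% and 13.1% for Nedd4l-229. Nedd4l-215 held 15.0 ± 3.66% and Nedd4l-231 12.1 ± 4.98%. The sum over protein-coding transcripts was steadier, at 31.4, 25.5 and 32.4 TPM. These transcripts held 60.2 ± 6.37% of the gene's TPM but 76.4% of its expected counts.

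Both other HECT ligases were far above Nedd4. The log2 ratio of Itch to Nedd4, on TPM with the pseudocount of 0.1, was 6.86, 6.78 and 5.55 (6.40 ± 0.73), and that of Nedd4l to Nedd4 was 6.30, 5.64 and 4.81 (5.58 ± 0.75). The sign was the same in every library and each mean was over 2 SD from 0, while the low value of library 3 in each comes with its higher Nedd4 level. Of the 6 other NEDD4-type HECT ligases looked for, 4 were detected: Wwp2 (78.6 ± 12.8 TPM), Smurf1 (65.5 ± 6.03 TPM), Smurf2 (29.6 ± 1.22 TPM) and Wwp1 (9.60 ± 0.641 TPM). Hecw1 and Hecw2 were not, with 27 and 10 counts.

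Ndfip1 encodes a membrane adaptor whose PY motifs bind and activate NEDD4-type ligases, and T cells that lack it escape tolerance. It had 506, 406 and 531 TPM, with library 2 below the others. Protein-coding transcripts made up 85.6 ± 3.48% of this, led by Ndfip1-204 (70.9 ± 7.46%), so that Ndfip1 had the most coding RNA of the 9 genes: 421, 340 and 476 TPM. Its share in retained-intron transcripts was 9.28%.

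Ndfip2, the paralog of Ndfip1 with the same binding motifs, lies on chr14:105258573-105309298 of the plus strand. It had 95.0, 74.3 and 97.6 TPM, again lowest in library 2. Its log2 ratio was the steadiest of the pairs compared: Ndfip1 over Ndfip2 was 2.41, 2.45 and 2.44 (2.43 ± 0.02). The coding transcript Ndfip2-202, whose annotated coding sequence lacks its start, held 54.5 ± 2.16% of the TPM of Ndfip2 and the full Ndfip2-206 held 11.3 ± 2.14%. The noncoding Ndfip2-203 held 31.7 ± 0.685%. It has 6 exons, against 8 in Ndfip2-202, and starts at chr14:105294546 with an exon that lies inside an intron. The part of Ndfip2-202 before this point is absent from it. The join is shown, with the last 30 bases of the preceding exon in capitals and the shared next exon in lower case; all are plus strand of GRCm38, from GENCODE M21.
Ndfip2-203: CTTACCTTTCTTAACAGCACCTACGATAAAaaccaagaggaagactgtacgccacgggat
Ndfip2-202: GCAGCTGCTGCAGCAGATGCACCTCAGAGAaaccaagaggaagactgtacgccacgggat
Only 9.53% of the 1521 bases of Ndfip2-203 lie outside protein-coding exons, in contrast to 84.0% for Cblb-202. Most of its sequence is thus shared with coding transcripts.

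Rnf128 on the X chromosome (139563316-139673145, plus strand) encodes GRAIL, a membrane-bound RING ligase named for its link to anergy in lymphocytes. It had 0.85, 0.55 and 0.65 TPM from 14, 8 and 18 counts, below 1 TPM in every library. The total of 40 counts has an exact 95% Poisson interval of 28.6 to 54.5. Rnf128-201, which is protein-coding, was given 59.2%, 28.2% and 100% of it, and the processed transcript Rnf128-203 the rest, and with posterior means Rnf128-203 led, with 45.5% against 38.3% for Rnf128-201. Otub1, the deubiquitinase that controls GRAIL stability, averaged 55.8 ± 5.77 TPM, and the log2 ratio of Rnf128 to Otub1 was -5.97, -6.24 and -6.30 (-6.17 ± 0.18). Of 10 other ligases of the same protease-associated RING class 6 were detected, with Rnf167 at 462 ± 49.5 TPM, Rnf130 at 41.6 ± 3.41 TPM, Znrf3 at 41.2 ± 1.40 TPM and Rnf13 at 41.0 ± 1.07 TPM. Rnf148 and Znrf4 had no counts in any library.

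Peli1, on chr11:21091291-21150323 of the plus strand, encodes a Pellino RING ligase that marks the NF-kB protein c-REL for degradation in T cells. It had 352, 295 and 377 TPM, with library 2 lowest. The coding transcript Peli1-201 held 82.9 ± 0.804% and the retained-intron transcript Peli1-204 13.9 ± 0.085%, which varied least among the transcripts named here. Peli1-204 is shown because it reads past a coding exon as Cblb-202 does, but at a far lower share; lower case is the shared coding sequence and capitals the bases past the border (Peli1-204 at chr11:21142628-21142687, plus strand, GRCm38, GENCODE M21).
Peli1-204: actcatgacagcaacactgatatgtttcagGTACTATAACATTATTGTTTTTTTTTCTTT
Peli1-201: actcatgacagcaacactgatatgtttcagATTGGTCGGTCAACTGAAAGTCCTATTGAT
It takes in 348 bases (8.17%) of the 4257-base intron and meets a stop codon that is complete 9 bases past the border, after 303 coding bases. Its open frame, with 2 codons from the intron, is 103 codons long, against 418 codons in Peli1-201. Neither other member of the family was detected: Peli3 averaged 0.907 ± 0.414 TPM and Peli2 0.167 ± 0.101 TPM, with 7 counts in all for Peli2. With the deposited posterior means, 1 of these 2 genes was detected. The log2 ratio of Peli1 to Peli3 was 9.38, 7.92 and 8.21 (8.50 ± 0.77), and that of Peli1 to Peli2 was 9.93, 10.04 and 11.20 (10.39 ± 0.70).

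**Figure D3:**
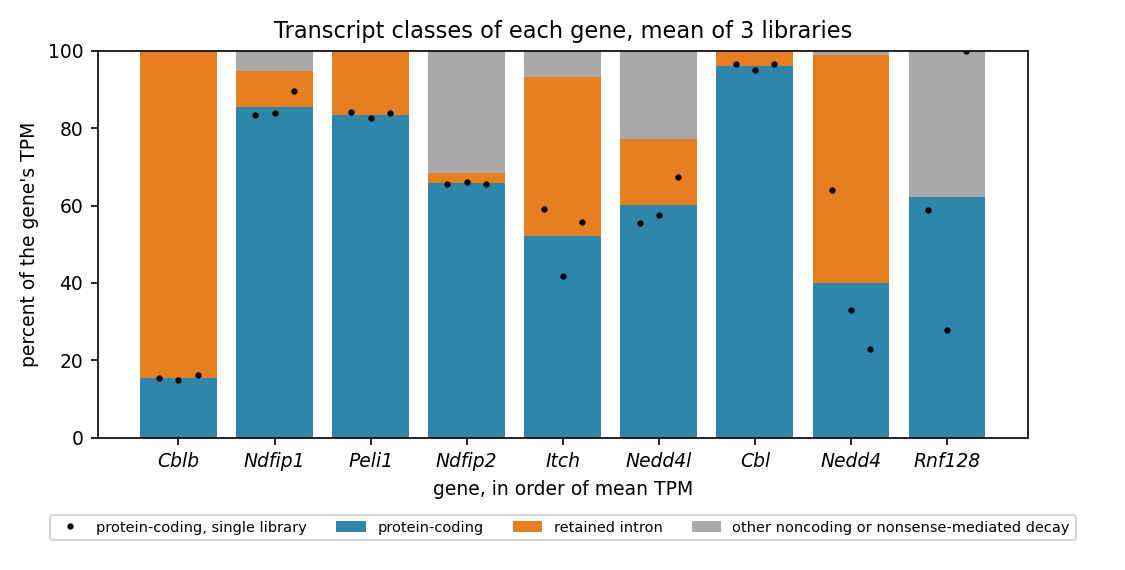
Percent of each gene's TPM in protein-coding (blue), retained-intron (orange) and other noncoding or nonsense-mediated decay transcripts (grey), as means of 3 technical libraries, with black points for the protein-coding percent in libraries 1, 2 and 3 from left to right. Cblb has the lowest protein-coding share, at 15.5%, and the points of Nedd4 and Rnf128 are wide apart.

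Counting protein-coding transcripts alone changed the order of the genes. Ndfip1 came first with 413 ± 68.1 TPM, then Peli1 with 285 ± 37.0 TPM and Cblb with 80.1 ± 1.20 TPM (SD, n = 3), and these did not overlap. Ndfip2 (58.5 ± 8.20 TPM), Itch (45.0 ± 4.14 TPM), Cbl (36.6 ± 0.710 TPM) and Nedd4l (29.8 ± 3.73 TPM) followed. The values of Ndfip2 and Itch overlapped between libraries, though Ndfip2 was above Itch in each. Over all 9 genes the coding share was 59.0%, 54.6% and 63.1% of a summed 1659, 1495 and 1663 TPM. By mean share of TPM over the libraries, a leading transcript that is not protein-coding was found for 2 of the 7 detected genes, Cblb and Nedd4l. This was set against 14.6% of the 9823 detected protein-coding genes. That of Nedd4l rested on 28.1, 36.3 and 31.3 expected counts in libraries 1, 2 and 3, against 14846, 19722 and 16132 for that of Cblb.

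**Figure D4:**
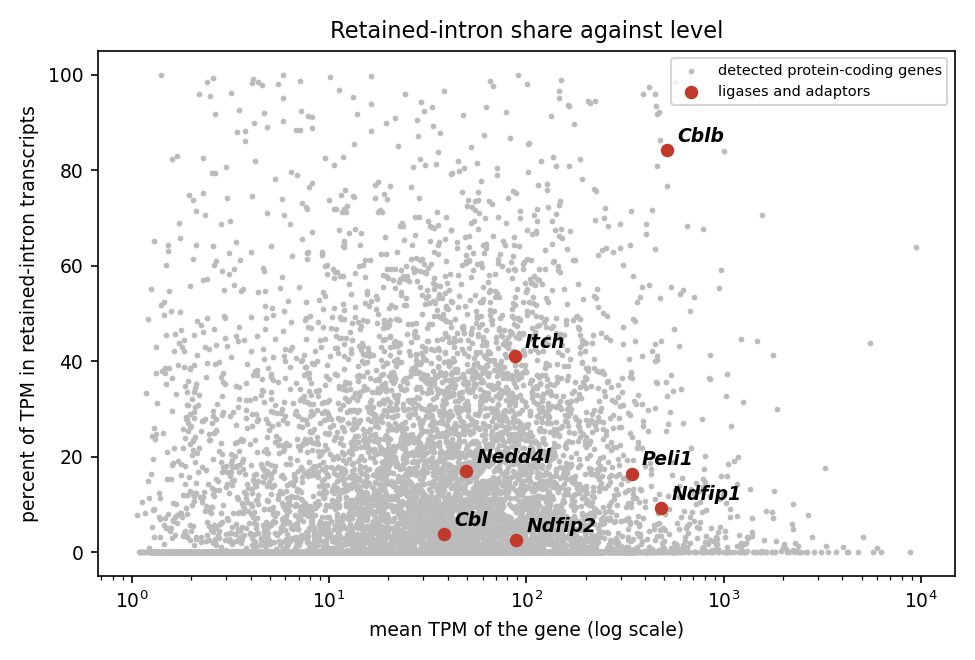
Percent of a gene's TPM in retained-intron transcripts against its mean TPM (log axis), with the 7 detected ligases and adaptors in red and all 9823 detected protein-coding genes in grey. Cblb, at 84.2% and 518 TPM, lies among few other genes of its level, and Itch at 41.1% is next of the named genes.

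The technical libraries differed in several of these genes by more than counting noise. By a chi-square test of homogeneity on TMM-scaled expected counts, with Benjamini-Hochberg adjustment over all genes, 7 of the 9 genes passed 0.05, against 40.0% of the 13090 genes tested. The 7 were the detected genes, with adjusted p from 1.98e-73 for Cblb to 0.0131 for Cbl; Nedd4 (0.0723) and Rnf128 (0.214) did not pass. Where a mean of at least 100 counts was required, 4590 of 9135 genes passed, and all 7 of those tested here. The sizes were modest: the highest scaled count was 1.27 times the lowest for Ndfip1, 1.19 times for Cblb and 1.11 times for Cbl. Nedd4 and Rnf128, which did not pass, had larger ratios of 1.94 and 2.28 on far fewer counts. Library 2 was the highest for Cblb, Itch and Cbl and the lowest for Ndfip1, Ndfip2, Peli1 and Nedd4l on this scale. Without library 2, 4 of the 9 genes passed (Cblb, Ndfip1, Nedd4l and Peli1), against 1903 of the 12917 genes tested. Cbl also failed to pass without library 3 or with libraries scaled by their totals, and Nedd4l did not pass without library 1. With the older counts described next, Ndfip1 and Peli1 passed, of the 8 tested here, against 1907 of 9989 genes.

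The authors' whole-number counts on the older GENCODE M4 annotation gave a further view of the same libraries. Cblb had 2188, 2588 and 2421 of these counts, together 11.7% of its expected counts on M21 and the lowest such percentage of the 9 genes. Over all genes the older counts came to 33.1% of the expected counts. The percentage was 17.2% for Ndfip1, 21.6% for Peli1, 44.6% for Cbl and 66.6% for Nedd4l, so the tables differ for every gene and by unequal factors. How the older counts treated reads from retained introns is not given in the sources used here.

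The remaining positions on GRCm38, both on the plus strand, were chr18:38410396-38465303 for Ndfip1 and chr18:64887705-65217828 for Nedd4l. Genes that overlap the 9 were low. The highest was a processed pseudogene inside Peli1, 2610024D14Rik, with 5.71, 5.13 and 6.80 TPM, and antisense genes in Nedd4l had at most 0.62 TPM. Whether counting used strand is not given in the sources used here.

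Genes for the enzymes that feed these ligases were mostly detected. All 6 genes for ubiquitin and its activating enzymes were detected, among them Ubb at 2478 ± 417 TPM and Rps27a at 302 ± 110 TPM. Rps27a, which encodes ubiquitin fused to a ribosomal protein, was highest in library 2, at 429 TPM, against 241 and 237 TPM in libraries 1 and 3. Of 14 E2 enzymes 12 were detected, led by Ube2d3 at 816 ± 72.0 TPM, which serves many RING and HECT ligases. The E2 gene Ube2n averaged 244 ± 23.7 TPM, of which protein-coding transcripts held 1.12%, followed by Ube2d2a at 217 ± 13.4 TPM and Ube2v1 at 193 ± 32.8 TPM.

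Most genes for proteins that bind or regulate the ligases were detected as well. Of 11 CBL relatives and CBL-binding adaptors 10 were detected, with Sh3kbp1 at 352 ± 40.4 TPM, Ubash3a at 219 ± 9.12 TPM, Grb2 at 168 ± 22.6 TPM and Sla at 113 ± 6.94 TPM; Ubash3a had 23.8% of its TPM in protein-coding transcripts. All 8 other adaptors and partners of NEDD4-type ligases were detected, led by Laptm5, which lowers T cell receptor levels at the lysosome, at 940 ± 27.9 TPM, and Txnip at 600.1 ± 68.0 TPM, with Wbp2 at 225 ± 8.80 TPM and Arrdc1 at 182 ± 21.3 TPM. Of 15 deubiquitinases 14 were detected, with Tnfaip3 (A20) at 1012 ± 43.2 TPM far above Usp7 at 151 ± 11.2 TPM, Usp15 at 147 ± 16.2 TPM and Usp25 at 134 ± 14.6 TPM. Protein-coding transcripts held 96.8% of the TPM of Tnfaip3, 29.1% for Usp7, 4.73% for Usp15 and 88.1% for Usp25. Of 13 kinases reported to act on the ligases 12 were detected, with Lck at 1182 ± 166 TPM, Fyn at 351 ± 38.1 TPM, Ikbke at 200.4 ± 16.3 TPM and Irak1 at 177 ± 6.57 TPM, and Syk was not (6 counts).

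**Figure D5:**
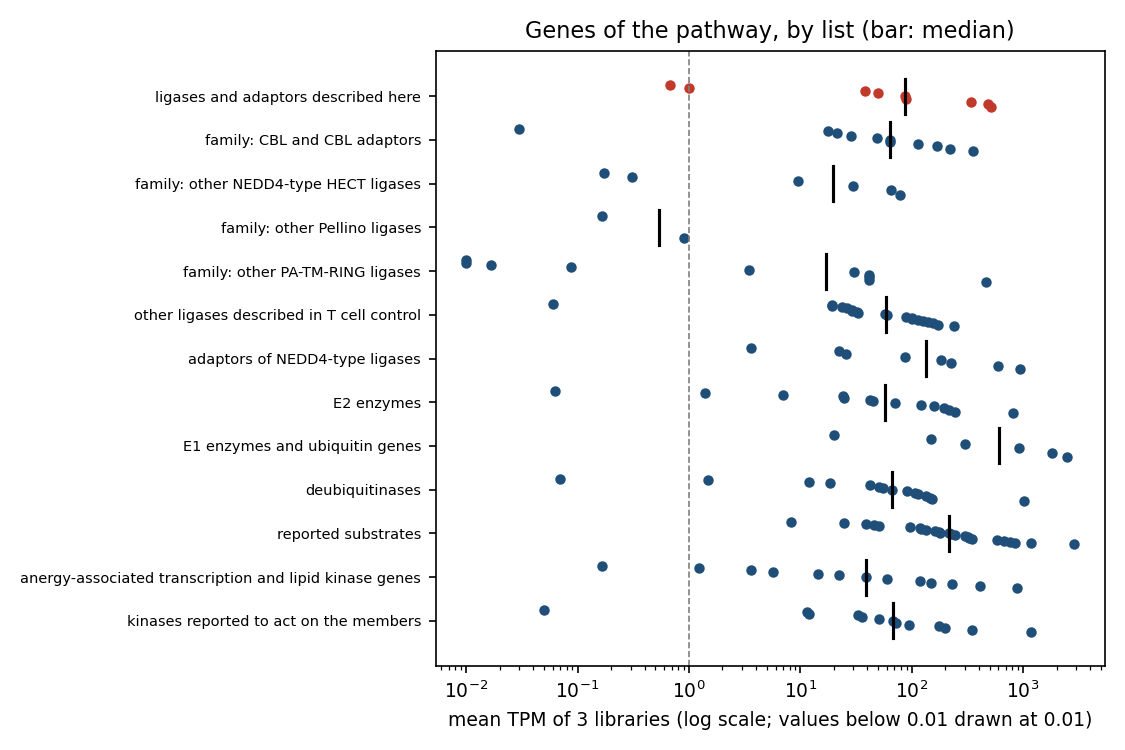
Mean TPM over 3 technical libraries (log axis, values below 0.01 drawn at 0.01) of the 9 ligases and adaptors in red and of the genes of 12 related lists in blue, with the median of each list as a black bar and a dashed line at 1 TPM. Ubiquitin genes and reported substrates lie highest, with medians of 608 and 217 TPM, against 87.2 TPM for the 9 genes.

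All 25 reported substrates were detected, with a median of 217 TPM, and the highest were Junb, a target of ITCH, at 2883 ± 568 TPM, Lck at 1182 ± 166 TPM, Jak1 at 844 ± 61.2 TPM and Cd3e at 761 ± 28.8 TPM. Of 20 other ligases described in T cell control 19 were detected, with a median of 59.0 TPM. At the top were Cul3 at 239 ± 35.8 TPM, Birc3 at 171 ± 10.4 TPM, Socs3 at 155 ± 9.72 TPM and Stub1 at 141 ± 18.7 TPM. Protein-coding transcripts held 64.4% of the TPM of Cul3, 92.1% for Birc3, 92.2% for Socs3 and 19.1% for Stub1. Of 13 genes linked to anergy, 11 were detected. The highest were Dgka, a diacylglycerol kinase gene, at 873 ± 44.1 TPM and Nr4a1 at 410 ± 36.4 TPM, then the diacylglycerol kinase gene Dgkz at 232 ± 13.5 TPM and Ikzf1 at 148 ± 17.5 TPM. Egr3, a transcription factor reported to raise Cblb in anergic cells, was not detected at 1.08, 1.93 and 0.67 TPM, nor was Lag3 at 3 counts. Egr2, of the same list, was detected, at 5.83, 4.68 and 6.67 TPM.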

How the data were processed

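PolyA RNA-seq of 1 mouse was deposited as 3 technical libraries, which form 1 group with 1 biological replicate and were told apart by the technical replicate number in the labels. RNA was fragmented by shearing on a Covaris device, per the labels. Per the submitters' processing notes the assembly was mm10 with GENCODE M21, and GENCODE M4 for an older count table. The aligner, the counter, their versions and any use of strand are unknown here: not given in the sources used.

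The authors deposited expected counts (estimated reads, not always whole), TPM and posterior means per gene and transcript, and isoform percent, a transcript's percent of its gene's TPM. The authors also deposited whole-number counts for 22457 genes on M4. Entries naming no gene held 0.247%, 0.200% and 0.325% of expected counts and entered neither library sizes nor tests.

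The genes and lists were chosen with earlier results of these data known. Named are all 9 genes, the pairs compared, the 4 highest genes of each list and transcripts with at least 10% of a gene's TPM. Cblb-201, Cblb-204, Cblb-206, Egr2, single marker genes and genes below detection were named after their values were seen. A few listed genes are not reported here but count in their lists' totals. Transcript classes, borders and coordinates came from GENCODE M21 (GRCm38), which held all 55536 gene identifiers.

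Expected counts were rounded, scaled by TMM (edgeR 4.0.16, R 4.3.3) and compared between libraries, gene by gene, with a chi-square homogeneity test (Benjamini-Hochberg adjustment, mean count of 10 or more). The test was tested on simulated data. It compares libraries, not conditions. Its p-values set differences between technical libraries against counting noise. They depend on the number of counts, so they do not measure the size of the technical spread. Reads carry no molecular identifiers, so intervals cover counting error only. A log2 ratio was called beyond the spread where its mean was over 2 SD from 0 with 1 sign in every library. Alternatives were library totals, DESeq2 1.42.0 size factors, pseudocounts of 1 and 0.01, other minimums for counts and TPM, posterior means, values with no length correction, M4 counts, protein-coding transcripts only, and each library left out.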

Additional observations from a re-analysis of the deposited data

How the results depend on the processing

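Each of the 7 log2 ratios kept its sign under every alternative run, and the number of the 9 genes detected was 7 except with posterior means (8, with Nedd4) and with a minimum of 0.5 TPM (9). The sizes moved. Cblb to Cbl was 3.76, against 3.59 with posterior means, 3.52 with no length correction, 1.60 with the older counts and 1.13 with protein-coding transcripts only. Itch to Nedd4 was 6.40, against 5.48 with a pseudocount of 1, 5.22 with posterior means and 7.21 with no length correction. Nedd4l to Nedd4 was 5.58, against 4.68 with a pseudocount of 1 and 4.73 with posterior means. Ndfip1 to Ndfip2 was 2.43, against 2.30 with no length correction, 1.12 with the older counts and 2.81 with protein-coding transcripts only. Peli1 to Peli2 was 10.39, against 8.19 with a pseudocount of 1, 11.12 with one of 0.01, 8.18 with posterior means, 12.01 with no length correction, 12.16 with the older counts and 11.16 with protein-coding transcripts only. Peli1 to Peli3 was 8.50, against 7.51 with a pseudocount of 1, 7.16 with posterior means and 9.32 with no length correction. Rnf128 to Otub1 was -6.17, against -5.07 with a pseudocount of 1, -6.35 with one of 0.01, -5.82 with posterior means, -5.95 with no length correction, -5.62 with the older counts and -6.62 with protein-coding transcripts only. The homogeneity test called 5238 of 13090 genes and 7 of the 9. With the older counts it called 1907 of 9989 genes, and 2 of 8 tested here. Without library 1 it called 4875 of 13260 genes and 6 of the 9. Without library 2 it called 1903 of 12917 genes and 4 of the 9, and without library 3 3615 of 13115 genes and 6 of the 9. The causes were not tested.

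Depth limits Nedd4, Rnf128, Peli2 and Peli3, whose ratios and transcript shares rest on 7 to 62.8 counts. The lead of Nedd4l-209 in mean share also rests on few counts: 28.1, 36.3 and 31.3 in libraries 1, 2 and 3. With posterior means the share was 52.4% for Cbl-201, 27.3% for Nedd4-203 and 38.3% for Rnf128-201, which then came below Rnf128-203 at 45.5%. The level of Nedd4 was 1.97 TPM with posterior means. With 1 mouse, no spread between animals can be given.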
